A study of Mus musculus with 15 samples.

Results

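40 genes whose transcripts mark macrophages were followed across 15 samples of mouse brown fat. They were taken as a list of gene symbols, each read from the probe sets that carry that lone symbol, and where a gene had several, the one with the greatest average level was used. All 40 were on the array, out of 18194 genes with such a probe set. Of the 40, 37 lay above the filter on dim genes, a mean of 5.06 on the log2 scale, and were tested among 13174 genes. Itgam (mean 4.90), Marco (4.55) and Timd4 (3.83) lay below it and are described by their levels alone. Cx3cr1 passed the filter only through the controls (mean 5.34, against 5.00 in each treated group), so a lower level in treated samples was built into its being tested, and its results are given as a description.

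The tissue was the interscapular brown fat, a depot that burns lipid for heat, of adult wild-type C57BL/6N males fed a high-fat diet, and all of it was taken on day 5. 5 mice were controls, and the labels do not say what, if anything, they were injected with. 5 mice received human FGF21, a hormone whose signal needs FGFR1 and the co-receptor KLB, at 1 mg/kg 2 times a day. The remaining 5 received bFKB1, an agonistic antibody to FGFR1/KLB (group aFGFR1/KLB), as 1 intraperitoneal dose of 10 mg/kg. The RNA came from whole pieces of tissue, in which every cell type contributes.

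Macrophages are phagocytes that live in adipose tissue, clear dying cells and spilled lipid, and respond to cytokines and metabolic stress. Resident cells are kept alive by signals through the receptor Csf1r and depend on the ETS-family transcription factor PU.1 (encoded by Spi1), while blood monocytes that carry Ccr2 enter along gradients of the chemokine Ccl2 and can replace them. In obese fat, lipid-laden macrophages are known for high Cd68, Gpnmb, Lgals3, Trem2 and Mmp12.

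Because most of the members moved together from sample to sample, the stretch of 250 bases before the transcription start was read for each from RefSeq promoters (GRCm38.p6), which matched 31 of the 40 genes. 6 of these had 2 windows, and a gene was counted once for a motif found in either. C1qa, Csf1r, Adgre1, Tyrobp, Cd14, Msr1, Lyve1, Ms4a6d and Ccl2 had no entry. 2 forms of the ETS core were searched on both strands. The purine-rich core bound by PU.1 was searched as GAGGAA. It reads TTCCTC on the opposite strand. A core shared by ETS factors was searched as GGAAGT. It reads ACTTCC on the opposite strand. They share the letters GGAA and can overlap. 6 stretches are shown, those of Cd68, C1qb and Lyz2 as core macrophage genes, Gpnmb and Lgals3 as members with a very wide range, and Cx3cr1 as the member that ran against the rest. They are written 5′ to 3′ on the gene's strand, ending at the base before the start, with capitals marking either motif in either orientation.
Cd68: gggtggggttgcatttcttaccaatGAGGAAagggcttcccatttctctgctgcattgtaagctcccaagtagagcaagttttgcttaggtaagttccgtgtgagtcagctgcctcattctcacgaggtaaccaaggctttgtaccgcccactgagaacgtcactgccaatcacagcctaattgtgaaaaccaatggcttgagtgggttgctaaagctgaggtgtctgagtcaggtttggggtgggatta
C1qb: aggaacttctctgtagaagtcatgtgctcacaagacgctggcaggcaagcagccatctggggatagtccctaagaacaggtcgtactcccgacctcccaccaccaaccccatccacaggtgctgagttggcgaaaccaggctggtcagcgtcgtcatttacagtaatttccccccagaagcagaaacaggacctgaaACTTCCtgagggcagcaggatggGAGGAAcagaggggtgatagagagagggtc
Lyz2: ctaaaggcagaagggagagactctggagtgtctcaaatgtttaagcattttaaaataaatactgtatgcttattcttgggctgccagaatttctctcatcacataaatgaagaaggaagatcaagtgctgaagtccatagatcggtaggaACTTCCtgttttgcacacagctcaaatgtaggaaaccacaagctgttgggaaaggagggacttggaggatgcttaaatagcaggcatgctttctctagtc
Gpnmb: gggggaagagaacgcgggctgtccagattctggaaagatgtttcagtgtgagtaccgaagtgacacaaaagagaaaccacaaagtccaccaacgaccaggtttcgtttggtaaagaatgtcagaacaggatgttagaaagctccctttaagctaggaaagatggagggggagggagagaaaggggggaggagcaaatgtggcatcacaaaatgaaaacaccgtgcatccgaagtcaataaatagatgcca
Lgals3: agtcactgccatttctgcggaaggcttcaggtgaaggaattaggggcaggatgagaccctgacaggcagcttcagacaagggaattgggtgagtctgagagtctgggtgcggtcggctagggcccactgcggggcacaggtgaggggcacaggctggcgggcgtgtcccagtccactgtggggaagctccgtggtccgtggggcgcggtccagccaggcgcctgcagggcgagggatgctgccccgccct
Cx3cr1: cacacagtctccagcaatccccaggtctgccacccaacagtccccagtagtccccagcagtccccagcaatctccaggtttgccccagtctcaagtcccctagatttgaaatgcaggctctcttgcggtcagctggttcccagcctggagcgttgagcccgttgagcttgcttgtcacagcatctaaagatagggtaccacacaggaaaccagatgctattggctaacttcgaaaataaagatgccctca

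Cd68 (chr11:69666171-69666420, minus strand) held GAGGAA from 225 bases before the start. C1qb (chr4:136886201-136886450, minus strand) held GAGGAA from 30 and ACTTCC from 53 bases before it, and Lyz2 (chr10:117282273-117282522, minus strand) held ACTTCC from 100 bases before it. Neither motif was present in these windows of Gpnmb (chr6:49036268-49036517, plus strand), Lgals3 (chr14:47373610-47373859, plus strand) or Cx3cr1 (chr9:120068297-120068546, minus strand). GAGGAA in either orientation stood in 16 of 31 members (51.6%) and in 25.9% of all 27025 genes with a window. GGAAGT stood in 13 members (41.9%) and in 22.2% of all genes, and at least 1 of the motifs in 22 members (71.0%) and 40.2% of all genes. A match of this kind is a description of the letters and not a site or a cause.

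The arrays had median intensities between 50.6 and 52.1. The labelled tissue was borne out by its defining marker, with Ucp1, the uncoupling protein of brown fat, between 14.52 and 14.82 (log2) in every sample. Most of the variation in the macrophage genes lay between mice of the same group. The median within-group SD of the 37 tested members was 0.92 on the log2 scale, where that of all tested genes was 0.16. From the lowest to the highest of the 15 samples the median member spanned 3.16, or 8.94-fold, and the median gene 0.62, or 1.54-fold. Widest was Gpnmb, a glycoprotein of lysosomes and lipid-laden macrophages, which spanned 6.09 (68.3-fold). Mmp12, the macrophage elastase, spanned 5.47 (44.5-fold), Lgals3, the lectin galectin-3, 4.69 (25.8-fold), Cd68, a glycoprotein of late endosomes, 4.31 (19.8-fold), and Ctss, the cathepsin S of antigen-processing cells, 4.15 (17.8-fold). Narrowest among the tested members was Cx3cr1, the fractalkine receptor, with 0.85 (1.80-fold), followed by the Fc receptors Fcgr2b (1.12, 2.17-fold) and Fcgr1 (1.18, 2.27-fold). The narrow range of these Fc receptors belongs to the probe sets used. Differences from control had a standard error of 0.17 for Fcgr1 and 0.66 in its other probe set above the filter. For Fcgr2b it was 0.18, and 0.30 to 0.41 in its other probe sets above the filter.

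A pair of samples stood far above the others. The median deviation of the 37 members from each gene's mean was −0.24, −1.09, −0.91, 1.64 and −0.05 in controls 31 to 35. It was 1.78, −0.97, 0.14, 0.67 and 0.24 in FGF21 36 to 40, and −0.59, −0.45, 0.22, −0.25 and −0.09 in aFGFR1/KLB 41 to 45. Control 34 and FGF21 36 were thus the high samples, controls 32 and 33 and FGF21 37 the low ones, and the antibody samples lay between them. In a whole piece of tissue, more macrophages and more RNA per macrophage cannot be told apart.

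**Figure D1:**
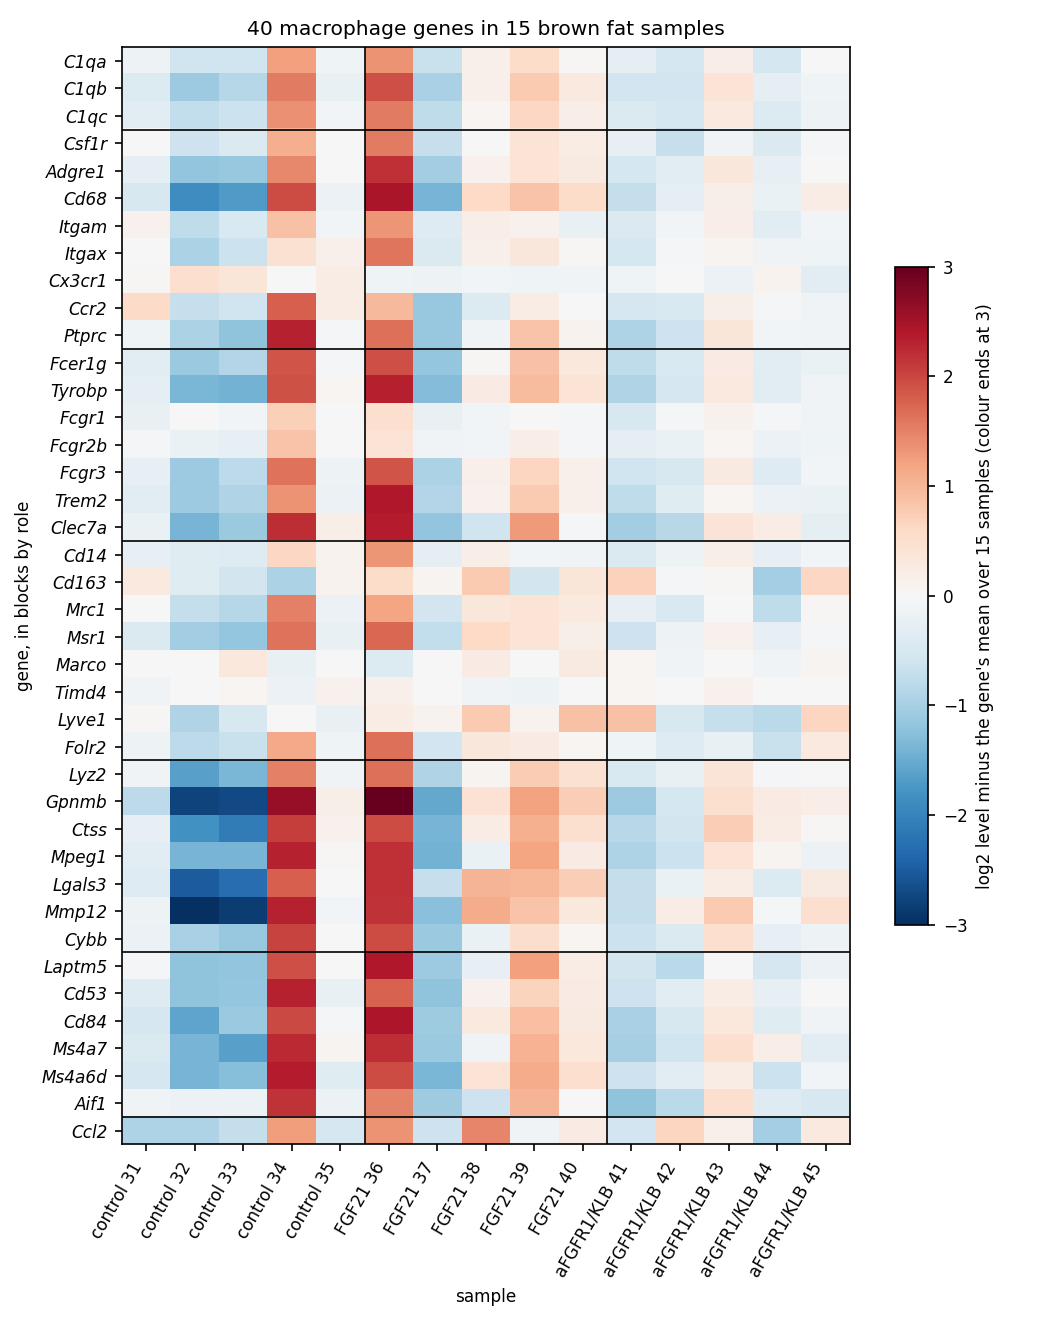
Each row is 1 of the 40 genes, in blocks by role, and each column 1 sample. Colour gives the log2 level minus the gene's mean over the 15 samples (red higher, blue lower, ending at 3), and vertical lines part the groups. Control 34 and FGF21 36 form red columns and controls 32 and 33 and FGF21 37 blue ones across nearly all rows, with Cx3cr1, Cd163, Lyve1, Marco and Timd4 as pale or differing rows.

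This order held for nearly all members. Control 34 had the highest control value in 34 of 37 members (91.9%, where it did so in 31.5% of all tested genes), and FGF21 36 the highest FGF21 value in 33 (89.2%, against 28.9% of all genes). Over all tested genes, control 34 was also the lowest control in 42.7%, and FGF21 36 the lowest FGF21 sample in 39.2%. These arrays thus often stood at an extreme of their group outside the members too. FGF21 37 was the lowest FGF21 sample in 35 (94.6%, against 21.4%), and control 32 the lowest control in 24 (64.9%, against 13.1%). In the antibody group, sample 43 was the highest in 28 members (75.7%, against 19.2% of all genes) and sample 41 the lowest in 26 (70.3%, against 27.3%). The exceptions were few. Cx3cr1 and Cd163, the haemoglobin scavenger receptor, were lowest of all controls in control 34, and Lyve1, a hyaluronan receptor of perivascular macrophages and lymphatic vessels, ranked 2 there. In FGF21 36, Cx3cr1 ranked 4, Lyve1 3, and Cd163 and the chemokine Ccl2 ranked 2 among the 5 FGF21 samples.

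The antibody group was the least spread. The median SD of the members was 0.37 in it, 1.07 in the controls and 1.04 with FGF21, and the median range within a group was 0.95, 2.72 and 2.84. Without control 34 and FGF21 36, the sample medians averaged −0.57 ± 0.50 (SD, n = 4) in controls and 0.02 ± 0.70 (SD, n = 4) with FGF21, against −0.23 ± 0.32 (SD, n = 5) with the antibody. With all samples the control and FGF21 averages were −0.13 ± 1.08 and 0.37 ± 0.99 (SD, n = 5 each). The difference in spread was not tested, and both samples were already known to stand apart in these genes, so a smaller spread without them follows from their choice.

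Some lists of markers of other cells moved with the same samples, and others did not. The summed intensity of 10 of 11 fibroblast and collagen markers with a usable probe set was 104512 in control 34 and 89496 in FGF21 36, and 30503 to 54635 in the other 13 samples. Monocyte markers (4 of 6, of which 3 lay above the filter) summed to 2078 in control 34, 1165 in FGF21 36 and 558 to 1170 in the rest. Their median deviation was highest in this pair, at 1.86 in control 34 and 0.75 in FGF21 36, and −0.65 to 0.22 in the rest. T and NK cell markers (9 of 11) summed to 1622 in control 34, 1118 in FGF21 36 and 626 to 1046 in the rest, but their median deviation was 0.44 in control 34 and −0.03 in FGF21 36, so as a list they were not raised in the latter. Thy1, which stromal cells also make, was at 9.65 and 9.14 (log2) in these samples, and the T cell gene Cd4 at 6.70 in both. Brown adipocyte markers (10 of 11) were lowest in these same arrays, at 132648 and 132906, against 139124 to 153205 elsewhere. Skeletal muscle markers (10 of 10) followed another order, with 111967 in aFGFR1/KLB 45, 99159 in FGF21 36, 16118 in control 34 and 2244 to 44880 in the rest. Other lists stayed near their means by median deviation. These deviations in control 34 and FGF21 36 were 0.17 and −0.03 for endothelial markers. They were 0.12 and −0.11 for dendritic cells, 0.17 and 0.04 for neutrophils, and 0.20 and 0 for B cells. For mast cells and eosinophils they were −0.10 and 0.02. Summed intensities were still highest in these arrays for neutrophils (414 and 477, 284 to 335 elsewhere) and B cells (316 and 321, 215 to 269 elsewhere). The dendritic cell sum peaked in control 34 (454, at most 400 elsewhere), and that of mast cells and eosinophils in FGF21 36 (551, at most 441 elsewhere). Erythrocyte markers (3 of 5, 1 above the filter) deviated by −0.22 and 0, with sums of 113 and 427, and 144 to 300 elsewhere. The part of these markers in the macrophage values was not tested.

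**Figure D2:**
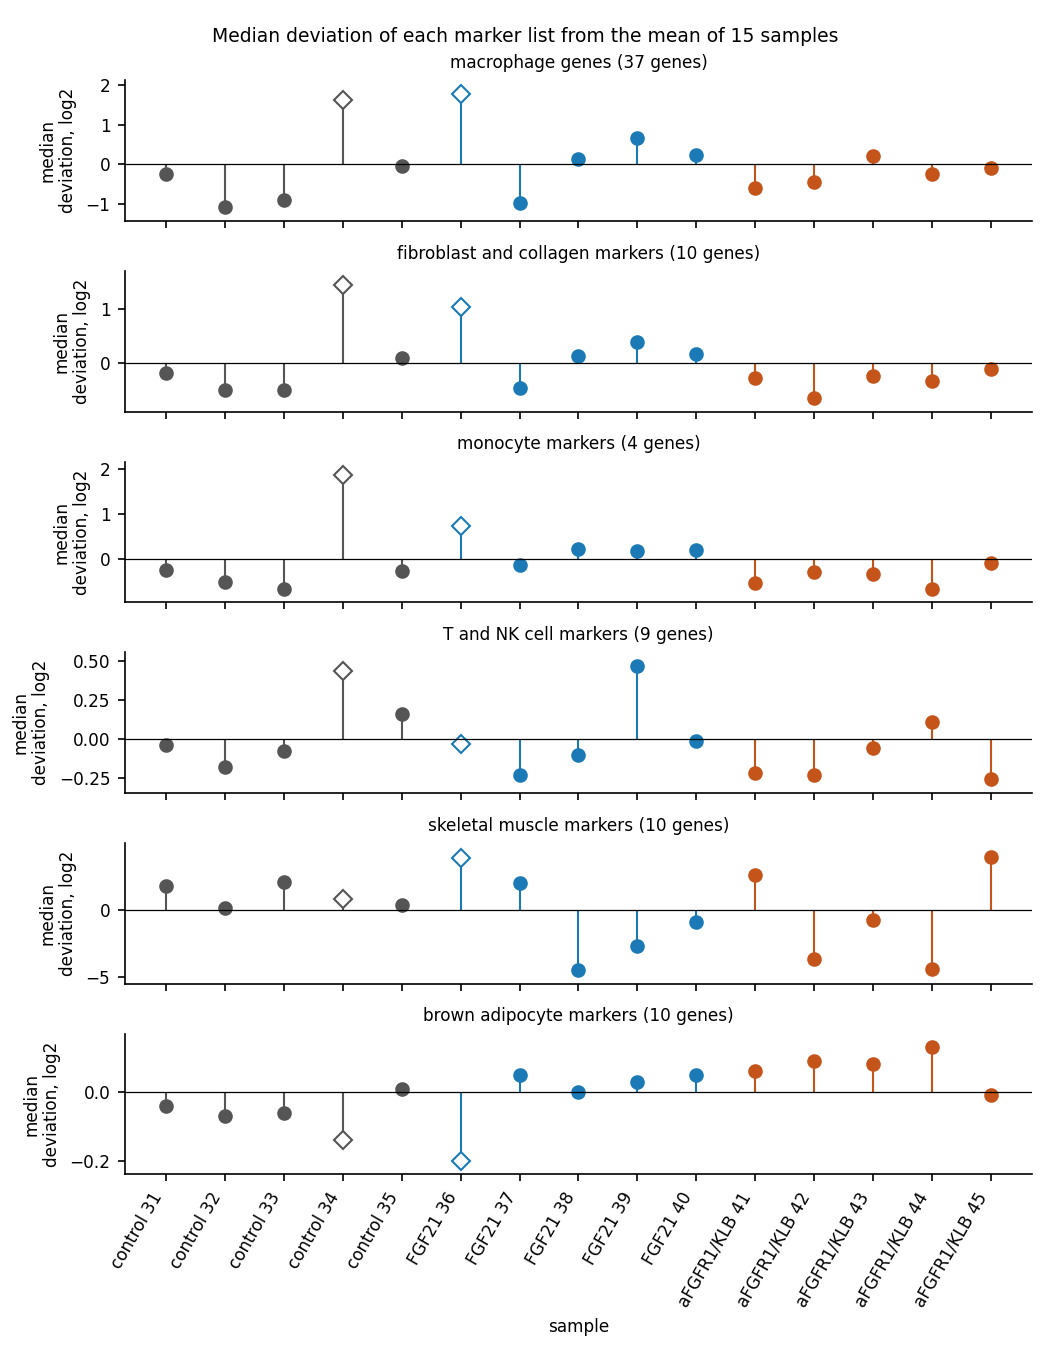
Each panel shows 1 marker list, with a point per sample giving the median deviation of its genes from their mean over 15 samples (log2), grey for control, blue for FGF21, orange for aFGFR1/KLB and open diamonds for control 34 and FGF21 36. The macrophage panel and the fibroblast and collagen panel share their highest samples (1.64 and 1.78, and 1.45 and 1.04), the brown adipocyte panel has its lowest values there, and the muscle panel differs.

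The comparison of FGF21 with control asks whether the hormone moved this programme. 33 of the 37 members had a higher mean with FGF21 and the median difference was 0.54 (log2), where the median of all tested genes was −0.02. No member passed in limma with all 15 samples (0 of 37 at a Benjamini-Hochberg adjusted p under 0.05, 3 at an unadjusted p under 0.05, with adjusted p from 0.0514 to 0.980). Of all 13174 genes, 6.32% passed. At the unadjusted threshold 20.4% of all genes passed. The groups did not overlap for 1 member in each direction, Lyve1 higher and Cx3cr1 lower, where 2.37% and 2.88% of all genes did so.

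The comparison of the antibody with control gave a median of −0.09, with 12 of 37 members higher, beside −0.02 for all genes. Again 0 of 37 passed in limma (1 at an unadjusted p under 0.05, adjusted p from 0.0609 to 0.991), where 5.18% of all genes passed (19.4% unadjusted). The groups overlapped for every tested member, while 4.44% of all genes lay wholly higher and 4.17% wholly lower. Between the treatments, 36 of 37 members were lower with the antibody than with FGF21, with a median of −0.58 against 0.01 for all genes. 0 of 37 passed in limma there (0 at an unadjusted p under 0.05, adjusted p from 0.473 to 0.986), and 0.372% of all genes did (13.5% unadjusted). Here too every tested member overlapped, with 2.39% of all genes wholly higher and 2.3% wholly lower. The 3 comparisons share samples, so their medians are not independent of each other.

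The median standard error of a member was 0.53, against 0.10 for all tested genes.

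**Figure D3:**
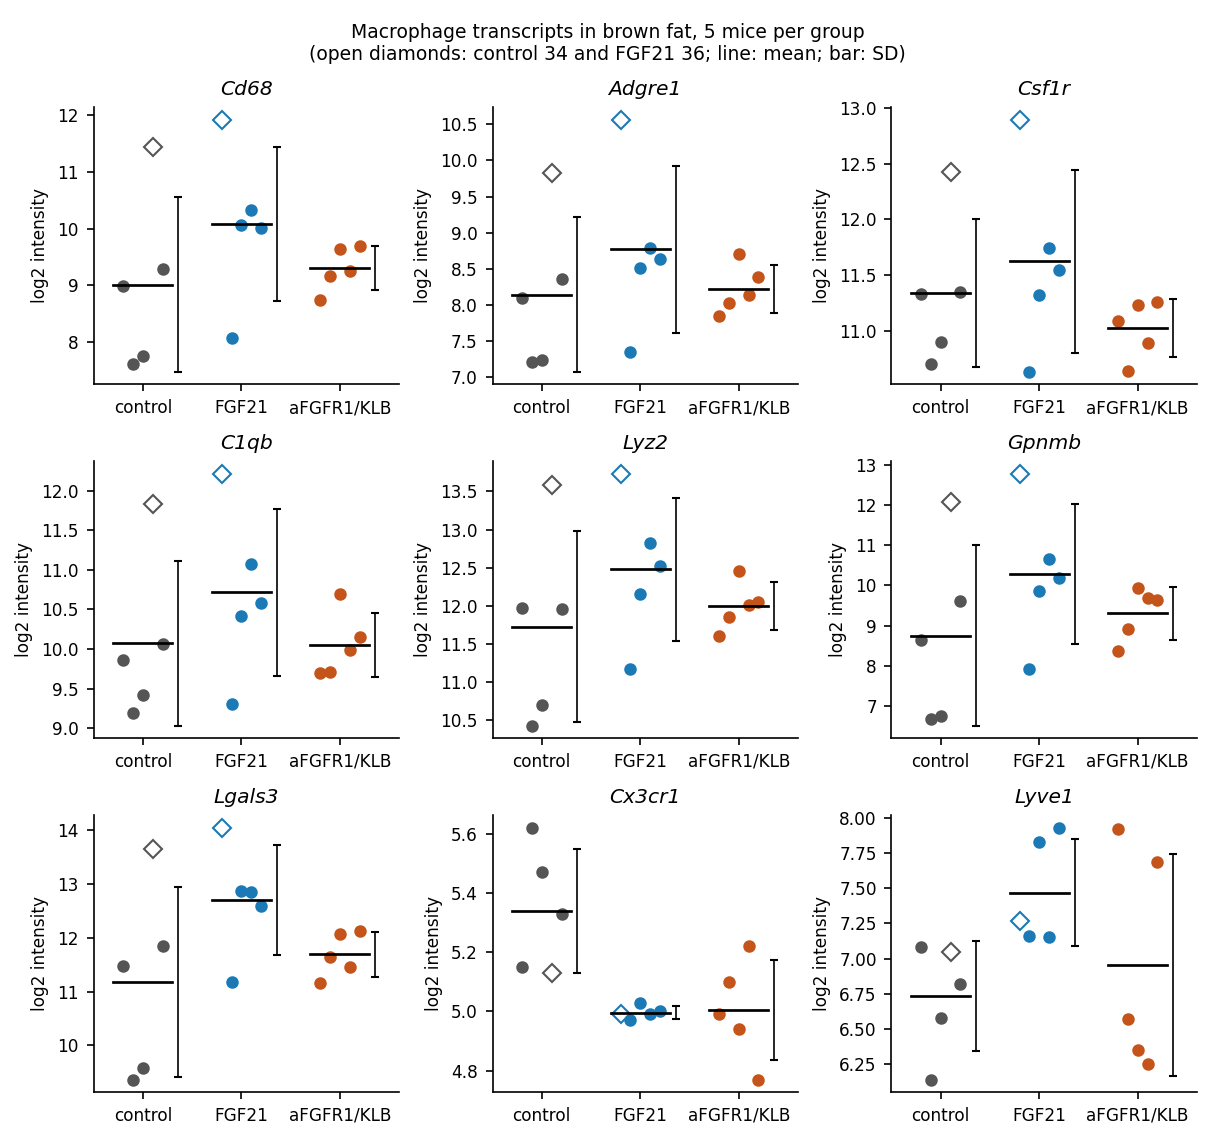
Log2 intensity of 9 macrophage genes in each sample, with the group mean as a line and the SD as a bar (n = 5 per group) and open diamonds for control 34 and FGF21 36. The diamonds top both groups except for Cx3cr1 and Lyve1.

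Complement C1q is made of the chains encoded by C1qa, C1qb and C1qc, which tag dying cells and debris for uptake and come mainly from macrophages. C1qa was at 10.22, 9.78, 9.77, 11.61 and 10.24 in controls 31 to 35, at 11.71, 9.71, 10.52, 10.92 and 10.41 in FGF21 36 to 40, and at 10.08, 9.84, 10.57, 9.84 and 10.37 in aFGFR1/KLB 41 to 45. C1qb was at 9.86, 9.19, 9.42, 11.83 and 10.06 in the controls, at 12.21, 9.31, 10.42, 11.07 and 10.58 with FGF21, and at 9.70, 9.71, 10.69, 9.99 and 10.15 with the antibody. C1qc was at 9.08, 8.67, 8.77, 10.78 and 9.33, then 10.97, 8.65, 9.47, 10.03 and 9.61, then 8.99, 8.88, 9.71, 9.01 and 9.27 in the same order. FGF21 36 and control 34 were the highest samples for all 3 chains, and the groups overlapped throughout. With FGF21 they were higher by 0.33 ± 0.37 (C1qa, log2 ± SE), 0.64 ± 0.51 (C1qb) and 0.42 ± 0.41 (C1qc), with limma adjusted p of 0.679, 0.540 and 0.637. With the antibody the differences were −0.18, −0.02 and −0.16 (adjusted p 0.845 to 0.989).

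Among lineage and identity receptors, Csf1r, the receptor for the growth factors CSF1 and IL-34, was at 11.33, 10.70, 10.90, 12.42 and 11.35 in controls. It was at 12.89, 10.63, 11.32, 11.74 and 11.54 with FGF21 and at 11.09, 10.64, 11.23, 10.89 and 11.26 with the antibody. The antibody values all lay below the 2 highest samples of either other group. Csf1r had the smallest p of all members between antibody and FGF21 (−0.60 ± 0.36, adjusted p = 0.473). Adgre1, which encodes the macrophage surface protein F4/80, was at 8.09, 7.20, 7.23, 9.82 and 8.36 in controls, 10.56, 7.34, 8.51, 8.79 and 8.64 with FGF21, and 7.84, 8.03, 8.71, 8.13 and 8.38 with the antibody. The controls and the FGF21 samples covered much the same range and enclosed the antibody samples. Its differences from control were 0.63 ± 0.54 with FGF21 (adjusted p = 0.576) and 0.08 ± 0.54 with the antibody (adjusted p = 0.959).

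Cd68 was at 8.99, 7.61, 7.76, 11.43 and 9.28 in controls, 11.91, 8.08, 10.07, 10.33 and 10.01 with FGF21, and 8.75, 9.17, 9.64, 9.26 and 9.70 with the antibody. 4 of the 5 FGF21 samples were above 4 of the 5 controls, and control 34 and FGF21 37 broke the separation. The difference was 1.07 ± 0.69 (95% interval −0.41 to 2.55, adjusted p = 0.431) with FGF21 and 0.29 ± 0.69 (−1.19 to 1.78, adjusted p = 0.874) with the antibody. Ptprc, the pan-leukocyte phosphatase CD45, averaged 9.01 ± 1.39, 9.30 ± 1.04 and 8.76 ± 0.50 (SD, n = 5 each) in controls, FGF21 and antibody. Itgax, the integrin CD11c, averaged 7.23 ± 0.58, 7.76 ± 0.76 and 7.29 ± 0.24. Both ranged as the other members did.

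Ccr2, the receptor for Ccl2, averaged 7.25 ± 1.01 in controls, 6.92 ± 0.78 with FGF21 and 6.80 ± 0.29 with the antibody (−0.33 ± 0.44 with FGF21, adjusted p = 0.741). Ccr2 had its group maxima in control 34 (8.78) and FGF21 36 (7.97) and its FGF21 minimum in FGF21 37 (5.86), as for most members. Its other probe sets above the filter differed with FGF21 by 0.08 ± 0.26 and −0.09 ± 0.13 (adjusted p = 0.906 and 0.752 over all probe sets). Cx3cr1 was at 5.15, 5.62, 5.47, 5.13 and 5.33 in controls, 4.99, 4.97, 5.03, 4.99 and 5.00 with FGF21, and 4.99, 5.10, 4.94, 5.22 and 4.77 with the antibody. All FGF21 values lay below all control values, while the antibody values overlapped with controls 31 and 34. Its differences were −0.34 ± 0.10 in both comparisons (limma adjusted p = 0.0514 with FGF21 and 0.0609 with the antibody). The probe set was dim, with a mean of 5.11 beside a filter at 5.06. Only the control mean of 5.34 lay above the filter, and both treated means, at 5.00, lay below it. The other probe set of Cx3cr1 lay below the filter. Itgam, the integrin CD11b, was below the filter, with means of 4.84, 5.10 and 4.75 in the 3 groups.

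Fc receptors bind antibody-coated targets, and several members of this group signal through the adaptors encoded by Tyrobp (DAP12) and Fcer1g (the common gamma chain). Tyrobp averaged 9.99 ± 1.36, 10.74 ± 1.31 and 9.90 ± 0.45 in controls, FGF21 and antibody, and Fcer1g 9.42 ± 1.19, 9.92 ± 1.14 and 9.23 ± 0.37. Trem2, a lipid-sensing receptor that uses the Tyrobp adaptor, averaged 7.29 ± 0.97, 8.04 ± 1.20 and 7.23 ± 0.30. Clec7a, the beta-glucan receptor dectin-1, averaged 8.78 ± 1.43, 9.19 ± 1.44 and 8.53 ± 0.63. These 4 had their highest FGF21 value in sample 36 and their lowest in sample 37. The activating receptor Fcgr3 averaged 8.41 ± 1.06, 8.92 ± 1.03 and 8.28 ± 0.35, the high-affinity receptor Fcgr1 6.86 ± 0.36, 6.81 ± 0.27 and 6.68 ± 0.22, and the inhibitory receptor Fcgr2b 8.58 ± 0.45, 8.59 ± 0.23 and 8.38 ± 0.12. All 7 of the group were lower with the antibody than with control (median −0.19) and 6 were higher with FGF21 (median 0.51), and 0 of 7 passed in limma in either (0 at an unadjusted p under 0.05). Of all genes, 5.18% passed with the antibody and 6.32% with FGF21 (19.4% and 20.4% unadjusted).

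Scavenger and pattern-recognition receptors take up lipoproteins, glycoproteins and microbial products. Cd14, the co-receptor for endotoxin, averaged 7.40 ± 0.43, 7.66 ± 0.65 and 7.30 ± 0.22 in controls, FGF21 and antibody, while Msr1, the scavenger receptor SR-A, ran from 6.41 to 9.20 in controls, 6.83 to 9.29 with FGF21 and 6.95 to 7.68 with the antibody (differences from control 0.68 ± 0.48 and 0.05 ± 0.48). Mrc1, the mannose receptor of tissue-resident cells, averaged 8.99 ± 0.94, 9.38 ± 0.61 and 8.76 ± 0.34, and Folr2, a folate receptor of resident macrophages, 7.48 ± 0.76, 7.95 ± 0.81 and 7.38 ± 0.35. Cd163 averaged 7.44 ± 0.50, 7.97 ± 0.51 and 7.77 ± 0.69, with its lowest control in sample 34 (6.79), unlike the other receptors of this group. Marco and Timd4, receptors of other resident macrophage sets, stayed between 4.14 and 4.87 and between 3.66 and 3.99, below the filter in every sample.

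Lyve1 followed an order unlike that of most members. It was at 7.08, 6.14, 6.58, 7.05 and 6.82 in controls, 7.27, 7.16, 7.83, 7.15 and 7.93 with FGF21, and 7.92, 6.57, 6.35, 6.25 and 7.69 with the antibody. Each FGF21 sample lay above each control, while the antibody group split into a pair of samples near the top and 3 near the bottom. The difference with FGF21 was 0.73 ± 0.32 (limma adjusted p = 0.209) and with the antibody 0.22 ± 0.32 (adjusted p = 0.773). A second probe set of Lyve1, with a mean of 6.20, was higher with FGF21 by 0.36 ± 0.23 (adjusted p = 0.447 over all probe sets).

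The lysosomal, secreted and effector proteins held the largest differences. Gpnmb was at 8.65, 6.68, 6.75, 12.07 and 9.62 in controls, 12.77, 7.92, 9.87, 10.65 and 10.18 with FGF21, and 8.36, 8.91, 9.93, 9.69 and 9.64 with the antibody. Its values in controls 32 and 33 were the lowest of the series, and 5.39 parted the lowest control from the highest. The difference with FGF21 was 1.53 ± 0.97 (95% interval −0.54 to 3.59, adjusted p = 0.419) and with the antibody 0.55 ± 0.97 (−1.51 to 2.62, adjusted p = 0.821). Lgals3 was at 11.47, 9.36, 9.57, 13.65 and 11.84 in controls, 14.05, 11.18, 12.87, 12.86 and 12.59 with FGF21, and 11.15, 11.65, 12.08, 11.45 and 12.13 with the antibody. 4 FGF21 samples exceeded all controls other than control 34, and the remaining one, FGF21 37, lay above controls 32 and 33 only. The difference was 1.53 ± 0.69 (95% interval 0.05 to 3.01, adjusted p = 0.226) with FGF21 and 0.51 ± 0.69 (−0.97 to 2.00, adjusted p = 0.757) with the antibody.

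Lyz2, the lysozyme of macrophages and neutrophils, was at 11.97, 10.43, 10.70, 13.59 and 11.96 in controls, 13.73, 11.17, 12.16, 12.83 and 12.52 with FGF21, and 11.61, 11.85, 12.46, 12.01 and 12.05 with the antibody. Its order of samples was that of Cd68 at both ends, and its differences were 0.75 ± 0.53 (adjusted p = 0.476) with FGF21 and 0.27 ± 0.53 (adjusted p = 0.847) with the antibody. Mmp12 averaged 7.02 ± 2.26, 8.45 ± 1.26 and 7.96 ± 0.57, with 4.63 and 4.97 in controls 32 and 33 and 10.11 in control 34. Ctss averaged 11.05 ± 1.67, 11.90 ± 1.24 and 11.36 ± 0.63, and Mpeg1, the pore-forming protein perforin-2, 10.06 ± 1.52, 10.62 ± 1.37 and 9.96 ± 0.54. Cybb, the catalytic subunit of the phagocyte NADPH oxidase, averaged 8.05 ± 1.26, 8.33 ± 1.12 and 7.89 ± 0.42. All 7 of this group had a higher mean with FGF21 than with control (median 0.86), and 5 with the antibody (median 0.31).

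The other membrane and cytoplasmic proteins were Laptm5, a lysosomal protein of blood cells (9.39 ± 1.28, 9.99 ± 1.35 and 9.09 ± 0.33 in controls, FGF21 and antibody), the tetraspanin Cd53 (9.07 ± 1.43, 9.52 ± 1.07 and 9.01 ± 0.32) and the adhesion receptor Cd84 (7.32 ± 1.38, 8.13 ± 1.27 and 7.26 ± 0.48). With them came the membrane proteins Ms4a7 (8.94 ± 1.55, 9.63 ± 1.25 and 8.92 ± 0.60) and Ms4a6d (7.10 ± 1.52, 7.86 ± 1.22 and 7.05 ± 0.37). Aif1, the actin-bundling protein IBA1, was at 7.10, 7.04, 7.04, 9.37 and 7.04 in controls, 8.69, 6.15, 6.60, 8.22 and 7.23 with FGF21, and 6.01, 6.40, 7.72, 6.82 and 6.74 with the antibody. 4 controls lay between 7.04 and 7.10 with control 34 far above them, and 4 antibody samples lay below every control. The difference was −0.78 ± 0.54 with the antibody (adjusted p = 0.477) and −0.14 ± 0.54 with FGF21 (adjusted p = 0.918). Ccl2, which draws monocytes through Ccr2, averaged 6.53 ± 0.92, 7.37 ± 0.91 and 6.79 ± 0.68 and had the only FGF21 maximum in sample 38 outside Cx3cr1 and Cd163 (8.36). Its difference with FGF21 was 0.83 ± 0.49 (adjusted p = 0.376).

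**Figure D4:**
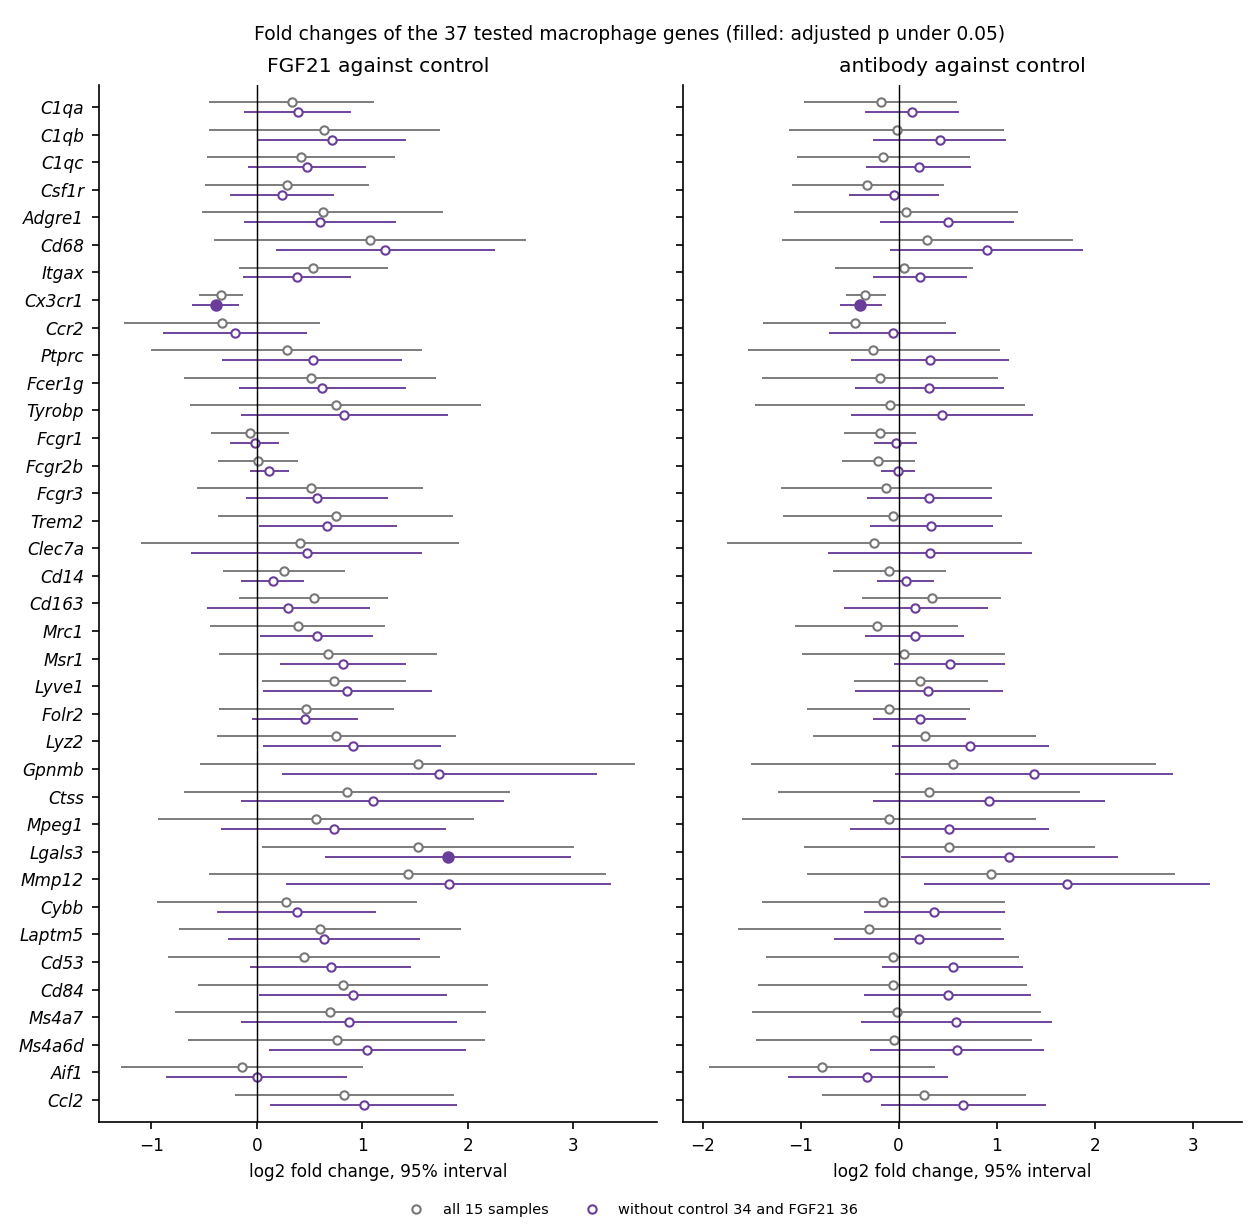
Log2 fold changes of the 37 tested genes against control with their 95% intervals, FGF21 on the left and antibody on the right, from all 15 samples (grey) and without control 34 and FGF21 36 (purple), with filled points where the adjusted p was under 0.05. The grey points are all open. Most purple intervals are shorter than the grey ones (not those of Lyve1, Cd163 and Cx3cr1), and filled points are Cx3cr1 in both panels (−0.39 in each) and Lgals3 with FGF21 (1.81).

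Without control 34 and FGF21 36 most intervals narrowed (those of Lyve1, Cd163 and Cx3cr1 did not) and some calls appeared. Both samples were already known to stand apart in these genes. The narrower intervals, and calls that rest on them, thus follow in part from that choice. Against 4 controls, FGF21 gave a median of 0.62 with 33 of 37 members higher, and 2 members passed in limma where 16.2% of all genes did (13 members and 30.9% of all genes at an unadjusted p under 0.05). Lgals3 rose by 1.81 ± 0.54, from 10.56 to 12.37 (adjusted p = 0.0370), among 6.77% of all genes called higher. Cx3cr1 fell by 0.39 on the log2 scale, from 5.39 to 5.00 (adjusted p = 0.0216), among 9.46% called lower, a difference from a control level just above the filter to one below it. Next came Msr1 (0.82 ± 0.28, adjusted p = 0.0614), with Mmp12 (1.82 ± 0.71, adjusted p = 0.101), Cd68 (1.22 ± 0.48, adjusted p = 0.105) and Gpnmb (1.73 ± 0.69, adjusted p = 0.108) further from the threshold. A share of 2 in 37 is below that of all genes.

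With the antibody, the median turned from −0.09 to 0.32 and 31 of 37 members were higher than in the 4 controls. No antibody sample was left out, and control 34 was the highest control in 34 of 37 members. The upward turn thus follows from its removal. The 1 member that passed was Cx3cr1, which fell by 0.39 (adjusted p = 0.0216) and was tested only because of its control level, where 12.4% of all genes passed, 5.41% higher and 6.97% lower (3 members and 27.1% of all genes at an unadjusted p under 0.05). Mmp12 was higher by 1.72 ± 0.68 (adjusted p = 0.118) and Lgals3 by 1.13 ± 0.51 (adjusted p = 0.174). Between the treatments the median was −0.26 and 0 of 37 passed (0 at an unadjusted p under 0.05, with 1.83% of all genes called and 15.4% at that unadjusted p).

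Single samples decided the size of the shift. The FGF21 median of 0.54 was 1.00 without control 34 and 0.18 without FGF21 36, 0.32 and 0.34 without controls 32 and 33, and 0.84 without FGF21 37. Without control 34 alone 3 members passed, Lgals3 (2.15, limma adjusted p = 0.0211), Msr1 (1.15, adjusted p = 0.0487) and Cx3cr1 (−0.39, adjusted p = 0.0147). Of all genes, 15.9% passed in that fit. Control 34 was the highest control for Lgals3 and Msr1, so leaving it out raised their differences. With all 15 samples, Msr1 differed with FGF21 by 0.68 ± 0.48, and its other probe sets above the filter by 0.33 ± 0.26 and 0.02 ± 0.10. Without control 34 the antibody median was 0.32, a rise that follows from leaving out the control that was highest for most members. It was −0.28 without either of controls 32 and 33 and 0.03 without aFGFR1/KLB 41. Between the treatments, −0.58 became −0.26 without FGF21 36 and −0.91 without FGF21 37. The call of Cx3cr1 with FGF21 also appeared without control 31 (adjusted p = 0.0455), aFGFR1/KLB 44 (0.0474) or aFGFR1/KLB 45 (0.0418). Cx3cr1 was tested only because of its control level, so its calls here are given as a description.

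**Figure D5:**
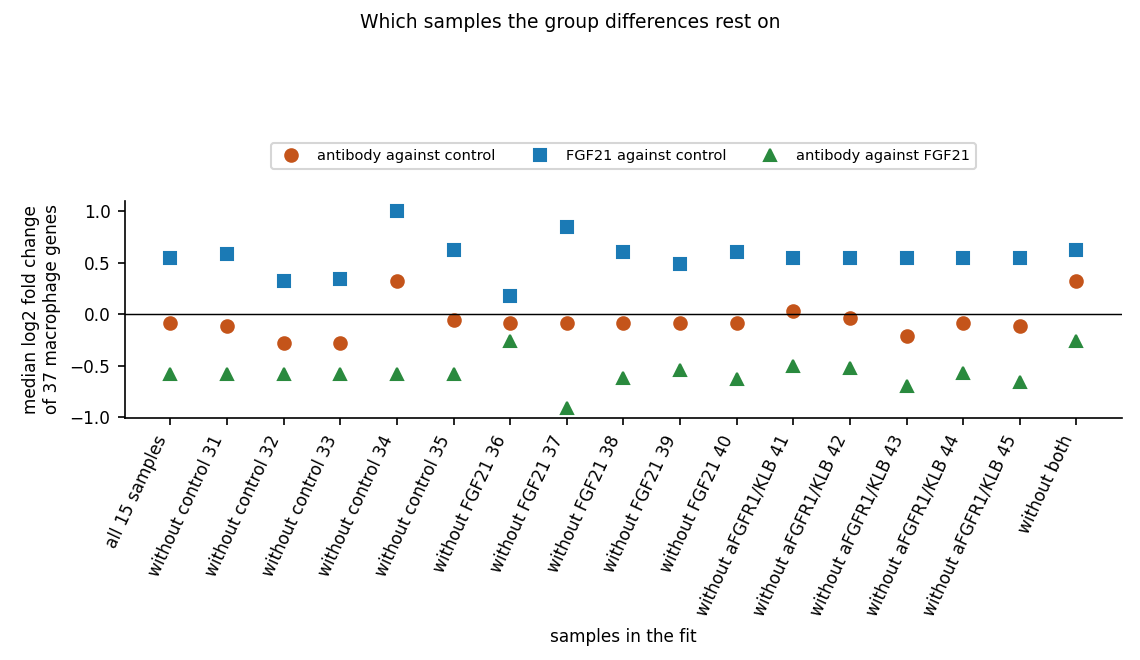
Median log2 fold change of the 37 tested genes for each comparison (blue squares, orange circles and green triangles) with all 15 samples, without each sample in turn, and without both control 34 and FGF21 36. The FGF21 median stays above 0 and moves from 0.18 to 1.00, the antibody median crosses 0 (−0.28 to 0.32), and the median between the treatments stays below 0 (−0.91 to −0.26).

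Genes that act with the members were read from further lists. Of 12 growth factors and transcription factors of macrophages, 10 were tested and 0 passed in limma in any comparison (1, 0 and 2 at an unadjusted p under 0.05 for antibody against control, FGF21 against control and antibody against FGF21). In the same order, 5.18%, 6.32% and 0.372% of all genes passed (19.4%, 20.4% and 13.5% unadjusted). The smallest p belonged to Cebpb, a transcription factor of myeloid cells and adipocytes, with 0.32 ± 0.09 for the antibody (adjusted p = 0.0588) and −0.02 ± 0.09 for FGF21 (adjusted p = 0.916). Csf1, the growth factor read by Csf1r, was at 0.30 ± 0.15 with FGF21 (adjusted p = 0.295). Spi1, named here because its product binds the motif searched, was at 0.36 ± 0.40 with FGF21 (adjusted p = 0.675). Their medians were −0.03 with the antibody and 0.22 with FGF21, against −0.02 for all genes in both.

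Of 21 genes of lysosomes and lipid handling, 17 were tested, and here calls stood with all 15 samples, 3 up with the antibody and 2 up with FGF21, where 2.69% and 2.64% of all genes were called higher. Ctsz, the lysosomal cathepsin Z, rose by 0.97 ± 0.10 with the antibody (adjusted p = 0.000331) and by 0.77 ± 0.10 with FGF21 (adjusted p = 0.000868). Plin2, a lipid droplet coat protein, rose by 0.23 ± 0.06 (adjusted p = 0.0352) and 0.37 ± 0.06 (adjusted p = 0.00189), and the fatty acid transporter Cd36 rose by 0.23 ± 0.05 with the antibody (adjusted p = 0.0248). All 3 are also made by other cells of the tissue, and their standard errors of 0.05 to 0.10 stand beside a median of 0.53 for the members. Lamp1, a glycoprotein of the lysosomal membrane, was next, at 0.25 ± 0.08 with the antibody (adjusted p = 0.0741). The list's medians were 0.07 with the antibody and 0.22 with FGF21.

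Of 13 genes for the uptake of dead cells, 10 were tested. Mfge8, a bridge between dying cells and phagocytes, rose with FGF21 by 1.12 ± 0.16 (adjusted p = 0.000995), where 2.64% of all genes were called higher. Mfge8 differed by −0.88 ± 0.16 between antibody and FGF21 (adjusted p = 0.0278), where 0.243% of all genes were called lower. The other 9 did not pass in any comparison. The list's medians were −0.08 with the antibody and 0.25 with FGF21. Of 18 chemokine genes 15 were tested, and 1 passed in each comparison with control, a share near the 5.18% and 6.32% of all genes called with the antibody and with FGF21. Cxcl12, a chemokine of stromal cells, rose by 0.61 ± 0.16 with the antibody (adjusted p = 0.0367), and Cxcl14 by 0.99 ± 0.27 with FGF21 (adjusted p = 0.0415). 0 of 12 tested cytokine and activation genes passed (0, 2 and 3 at an unadjusted p under 0.05) and 0 of 12 genes of the Syk pathway (0 in each at an unadjusted p under 0.05), in limma. The order is antibody against control, FGF21 against control and antibody against FGF21. Of all genes, 5.18%, 6.32% and 0.372% passed in that order (19.4%, 20.4% and 13.5% unadjusted). The medians with FGF21 were 0.35 for the chemokine genes, 0.03 for the cytokine genes and 0.26 for the Syk pathway, and with the antibody −0.09, −0.16 and −0.28.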

How the data were processed

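Transcripts were measured on 1 microarray per sample (15 samples, 5 per group, groups taken from the sample titles). The authors deposited normalised, linear intensities, which ran from 5.58 to 34652. RMA is the tool named in the submitters' processing notes, without a version. Only a log2 transform was applied to them here. Of 45101 probe sets, 34958 carried 1 gene symbol, 932 several, and 9211 were not listed or had no symbol. Genes brighter than 5.06 (log2), which is percentile 40 of the averages of all probe sets, numbered 13174. They were fitted with limma 3.58.1 in R 4.3.3 as a one-way model with 12 residual degrees of freedom. Two-sided p-values received the Benjamini-Hochberg adjustment over all these genes, separately for each comparison, at a threshold of 0.05. The fit was tested on simulated data. Arrays give no read depth, and their number limits the precision.

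The members, the lists and the pair of samples left out were chosen with earlier results of these data known. The labels call the samples biological replicates. All 40 members are named. Values in every sample are given for Cd68, Adgre1, Csf1r, Lyz2, the C1q chains, Gpnmb, members called with all samples or without control 34 and FGF21 36, and the 2 tested members with the smallest p in each comparison. Of each further list up to 4 genes with the smallest p and the called ones were eligible. Alternatives were other filters, probe set means, centrings, an added constant of 16, array weights, another variance prior, fits of 2 groups, and leaving out samples.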

Additional observations from a re-analysis of the deposited data

Results flagged for a closer look

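Within each group of 5, the gap between the highest or lowest sample and its neighbour was set against the whole range, with Dixon's critical value of 0.71, over 114 groups of values. 7 values passed, and all 7 were the highest control, control 34. About 1 in 20 groups is picked out by chance, and these groups share their samples, so the 7 are not independent. They were C1qa at 11.61 (next control 10.24), the Fc receptors Fcgr1 at 7.50 (6.78) and Fcgr2b at 9.38 (8.50), Cd53 at 11.50 (8.98), Ms4a6d at 9.69 (6.98), Aif1 at 9.37 (7.10) and Ccl2 at 8.15 (6.40), on the log2 scale. FGF21 36 did not pass for any member.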

How the results depend on the processing

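0 members passed in limma with all 15 samples. For the antibody against control, 1 passed without control 34 and FGF21 36 and 1 with array weights, and 0 to 1 when 1 sample was left out, in each case Cx3cr1, which passed the filter only through the controls. For FGF21 against control, 2 passed without both samples, 3 with array weights (Cx3cr1, adjusted p = 0.0115; Lyve1, 0.97, adjusted p = 0.0323; Lgals3, 1.44, adjusted p = 0.0442) and 0 to 3 when 1 sample was left out. Of all genes, array weights called 17.5% with the antibody and 21.7% with FGF21. The fit without both samples called 12.4% and 16.2% of all genes, and the fit without control 34 alone 8.65% and 15.9%. Between the treatments the count was 0 in all these fits. With 1 sample left out, the members' medians ran from −0.28 to 0.32, from 0.18 to 1.00 and from −0.91 to −0.26 for the 3 comparisons in this order. With 0 members called in the main fit, there was no call whose sign could change. Uncalled members changed sign in 95, 23 and 7 fits of a member over the 25 other settings. A filter at the 60th percentile removed Cx3cr1, and 36 members were tested.

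Counts over all genes moved more. Beside 682, 833 and 49 calls, array weights gave 2307, 2855 and 832, leaving out both samples 1631, 2138 and 241, and centring on 48 ribosomal protein genes 163, 186 and 8. That centring moved the median of all genes from −0.02, −0.02 and 0.01 to 0.08, −0.01 and 0.10, and the members' medians to 0.01, 0.54 and −0.49. Centring on the median gene gave 419, 538 and 26 calls, only the groups compared 667, 322 and 87, the stricter filter 762, 894 and 77, and the other variance prior 701, 864 and 81. The cause was not tested. No paired analysis was possible because the replicate numbers 31 to 45 do not repeat between groups.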

Other observations

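Without control 34 and FGF21 36, further genes of the lysosome and lipid list passed, 6 up and 1 down of 17 with the antibody and 6 up with FGF21. Of all genes in that fit, 5.41% were called higher and 6.97% lower with the antibody, and 6.77% higher with FGF21. Lipa, the lysosomal acid lipase, rose by 0.47 ± 0.08 with the antibody (limma adjusted p = 0.00196) and by 0.58 ± 0.08 with FGF21 (adjusted p = 0.000521). The lysosomal membrane proteins Lamp1 and Lamp2 rose with the antibody by 0.31 and 0.39 (adjusted p = 0.0127 and 0.00426), and Lamp1 rose with FGF21 by 0.26 (adjusted p = 0.0330). Npc2, which carries cholesterol out of lysosomes, fell by 0.29 with the antibody (adjusted p = 0.0471). The cholesterol exporter Abcg1 rose by 1.02 ± 0.27 (adjusted p = 0.0198) and Ctsl, cathepsin L, by 0.50 ± 0.13 (adjusted p = 0.0186) with FGF21. With all 15 samples Lipa was at 0.31 and 0.47 (adjusted p = 0.274 and 0.0734), Lamp1 at 0.25 and 0.21 (0.0741 and 0.141) and Abcg1 at −0.04 and 0.79 (0.973 and 0.351) for antibody and FGF21. Lamp2 was then at 0.24 and 0.13 (0.366 and 0.666), Npc2 at −0.36 and −0.05 (0.146 and 0.871) and Ctsl at −0.01 and 0.48 (0.992 and 0.501). These genes are named after their values without both samples were seen.

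In the same reduced fit 5 of 15 chemokine genes rose with FGF21, among them Ccl6 (1.40 ± 0.43, adjusted p = 0.0429), Ccl9 (1.49 ± 0.47, adjusted p = 0.0452) and the receptor Ccr1 (0.66 ± 0.16, adjusted p = 0.0149), where 6.77% of all genes were called higher. Tlr4, the endotoxin receptor, rose by 0.68 ± 0.16 (adjusted p = 0.0102). With all 15 samples Ccl6 was at 1.18 (adjusted p = 0.305), Ccl9 at 1.31 (0.283), Ccr1 at 0.42 (0.645) and Tlr4 at 0.56 (0.182).

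12 members had 21 further probe sets above the filter. 0 of these passed in limma in any comparison with all samples (adjusted p of at least 0.403, 0.388 and 0.665 over all probe sets for FGF21 against control, antibody against FGF21 and antibody against control). 17 of the 21 were higher with FGF21 than with control.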
